A study of Mus musculus with 18 samples.

Results

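The testis transcriptome of mice given a high fat diet together with AOS was compared with that of untreated control mice, using 6 of the 18 libraries of the series. All 6 came from testis of ICR mice, an outbred stock, at 10 weeks of age. The HFD-AOS group (libraries 1 to 3) received the diet and AOS at 10 mg/kg, and the control group (libraries 1 to 3) carries neither treatment in its labels. The diet's composition, the route and duration of dosing, and the words behind the abbreviation AOS do not appear in the labels. The series as a whole concerned testis damage by a high fat diet and its rescue. Its other 12 libraries are 3 each of AOS alone (10 mg/kg), the diet alone (HFD), and the diet with FMT labelled AOSFMT or conFMT. The HFD-AOSFMT libraries are also listed with 10 mg/kg. Genes were kept where their mean over the 18 libraries was at least 1 FPKM, a level scaled to transcript length and library size, which left 13105 of 20979 gene symbols. Nothing in the labels ties a library to an animal of its own, so the spread behind each p-value is that of these libraries and may be technical.

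The adult testis makes sperm in seminiferous tubules, where spermatogonia divide, spermatocytes pass meiosis, and spermatids reshape into sperm with support from Sertoli cells. Leydig cells between the tubules make testosterone from cholesterol. Both compartments synthesise sterols and long polyunsaturated fatty acids locally, and germ cells store these in their membranes as they mature.

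The marker levels were those of testis in all 6 libraries. The spermatid protamine Prm1 lay between 11650 and 17895 FPKM and the Leydig cell gene Star between 24.8 and 52.8 FPKM. The 6 libraries summed to 588081 to 637005 FPKM, with 13041 to 13221 genes at 1 FPKM or more. The table does not show read depth, and counting intervals are left out. The library labelled control 3 stood apart on the first principal component of the 6 libraries, which held 33.6% of the variance, and HFD-AOS 1 lay at its other end. Control 3 also held 159 FPKM of Crisp1, a secretory protein of the epididymis, against 2.71 and 0.15 in controls 1 and 2 and 0.05 to 0.10 in HFD-AOS. Without control 3, 24 of the 325 genes called below kept their call, and without control 2, 16.

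Between the groups, 129 genes were higher and 196 lower in HFD-AOS than in control at an adjusted p under 0.05 (limma with a mean-variance trend on log2(FPKM + 1), Benjamini-Hochberg adjustment), together 2.48% of the 13105 genes tested, with 0.984% higher and 1.5% lower. Log2 values below are differences on this scale, HFD-AOS minus control, which understate the change of low genes. Most called differences were small. Of the 325, 294 were under 0.5 and 5 reached 1, with a median size of 0.27 and a range of 0.14 to 2.46. The values of the groups did not overlap for 324 of them, and for 2777 genes, or 21.2%, of all those tested. At the edge of the threshold, Mib1 had an adjusted p of 0.0499 and a log2 difference of -0.24, and Tut7, just outside, an adjusted p of 0.05004 and -0.22.

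These counts depended on single libraries and on the fit. Without control 2, 7 genes were higher and 9 lower; without control 3, 15 and 9; without HFD-AOS 1, 51 and 63. A fit of the 6 libraries alone, with 4 residual degrees of freedom, called 0 genes by limma, where 1796 had an unadjusted p under 0.05. Scaling each library to the same sum gave 112 higher and 1358 lower, so that 7.62% of the calls were higher, against 39.7% in the values given here. In all, 12 genes stayed called in at least 14 of 17 alternative analyses: Klk1b21, Klk1b24, Klk1b27, Mmd2, Arhgap5 and Naa15 among the lower, and Spink4, Mt2, Saxo2, Tmem190, Izumo2 and 2300009A05Rik among the higher. These 12 were among the 24 that kept their call without control 3, and of the other called genes named below only Bnipl did.

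The largest difference among called genes was the lower level of a block of glandular kallikreins, a family of secreted serine proteases encoded side by side on mouse chromosome 7. Klk1b21, Klk1b24 and Klk1b27, known in the adult mouse testis from Leydig cells, fell together. Klk1b21 measured 26.5, 21.6 and 15.95 FPKM in controls 1 to 3 and 4.59, 2.31 and 2.41 FPKM in HFD-AOS 1 to 3. Every control lay above every HFD-AOS library, and the group means of 21.3 ± 5.28 and 3.10 ± 1.29 FPKM (SD, n = 3 each) stood 6.88-fold apart. On the log2 scale the difference was -2.46 (SE 0.29, adjusted p = 0.00455).

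Klk1b24 measured 29.6, 23.4 and 13.7 FPKM in the controls and 5.0, 1.88 and 3.21 FPKM in HFD-AOS, a log2 difference of -2.41 (SE 0.31, adjusted p = 0.00455). Klk1b27 measured 22.4, 16.8 and 10.7 FPKM in the controls and 4.06, 1.05 and 2.13 FPKM in HFD-AOS, a difference of -2.40 (SE 0.38, adjusted p = 0.00974). In all 3 genes control 1 was the highest of the 6 libraries and HFD-AOS 1 the highest of its group, and the groups did not overlap. Klk1b21 and Klk1b24 stayed called in 16 of 17 alternatives and Klk1b27 in 14. Klk1b27 lost its call without control 2, and none of the 3 was called in the fit of the 6 libraries alone.

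The other 7 kallikreins tested did not pass. Klk1b8, the most abundant, measured 85.8, 81.7 and 75.1 FPKM in the controls and 108, 85.4 and 98.5 FPKM in HFD-AOS (log2 difference 0.26, adjusted p = 0.064). The remaining 6 (Klk1, Klk1b3, Klk1b4, Klk1b5, Klk1b9 and Klk1b26) lay between -0.38 and 0.34. Over the 10 members tested, 3 were called lower (30%) and 0 higher, with a median of -0.12. Over all genes tested, 1.5% were called lower and the median was -0.03.

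In chromosome order on mm10 the called genes are neighbours among those tested: Klk1b27 (chr7:44052290-44056712), Klk1b21 (chr7:44102328-44106583) and Klk1b24 (chr7:44188236-44192455), all on the plus strand. Klk1b22 and Klk1b16 lie between Klk1b21 and Klk1b24 and were under the mean of 1 FPKM, so they were not tested. Klk1b22 nevertheless measured 4.26, 3.43 and 0.92 FPKM in the controls and 0.49, 0.00 and 0.09 FPKM in HFD-AOS. Klk1b16 measured 2.46, 1.1 and 1.37 FPKM in the controls and 0.38, 0.55 and 0.62 FPKM in HFD-AOS. Both were lower in every HFD-AOS library than in any control. With no filter on low values, these 5 genes were the kallikreins called lower, Klk1b22 with a log2 difference of -1.60 (adjusted p = 0.0454) and Klk1b16 with -0.77 (adjusted p = 0.0453). Without that filter, 99 of 20576 genes were called lower. On either side of these kallikreins, Klk1b26 and Klk1b3 had differences of -0.29 (adjusted p = 0.69) and 0.04 (adjusted p = 0.93).

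**Figure D1:**
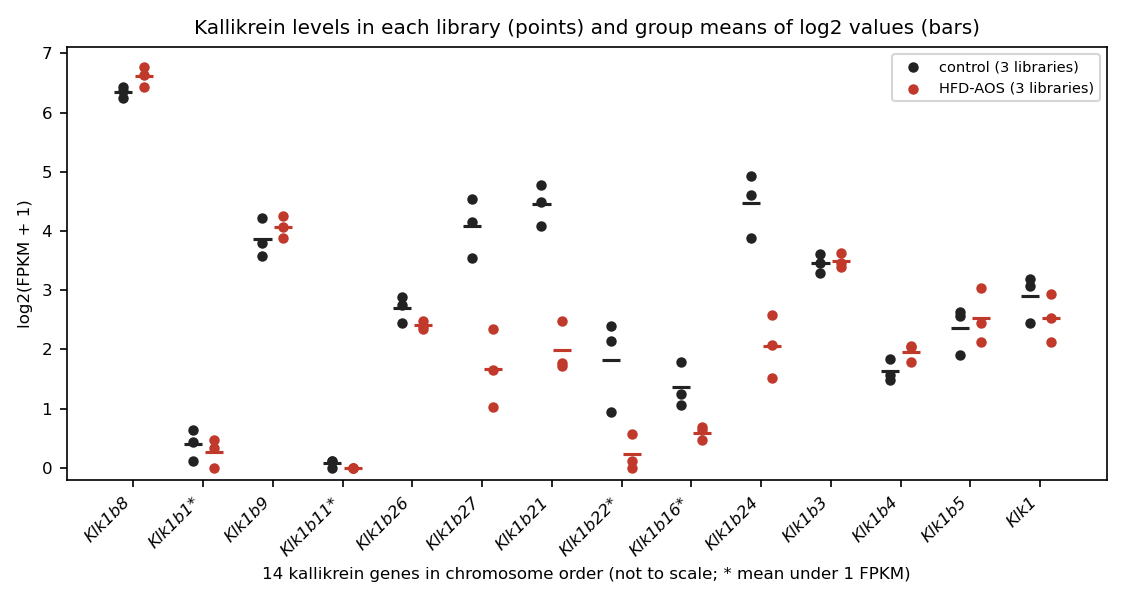
Levels of 14 kallikrein genes as log2(FPKM + 1), in chromosome order along the horizontal axis (not to scale), with 1 point per library and a bar at each group's mean. The control points of Klk1b27, Klk1b21, Klk1b22, Klk1b16 and Klk1b24 all lie above the HFD-AOS points, while those of Klk1b26 and Klk1b3, on either side, overlap.

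The 3 called kallikreins are closer in sequence to each other than to the 7 that were not called. Their longest transcripts share 93.3% to 94.1% of aligned bases, against 84.2% to 88.8% between a called and an uncalled member, and 82.8% to 94.2% between uncalled members. Reads from such near copies can be split or shared by the counting, which the sources used here do not describe, so the level of any single member is uncertain. The 250 bases before the start sites of the 3 genes (RefSeq, GRCm38.p6, plus strand) are shown because the genes moved together. Capitals mark the longest run identical in all of them, 89 bases, which 0 of the 7 promoters of the other tested kallikreins hold. Klk1b22 and Klk1b16, also lower in HFD-AOS but under the filter, were left out of these comparisons among kallikreins.
Klk1b27 (chr7:44052040-44052289): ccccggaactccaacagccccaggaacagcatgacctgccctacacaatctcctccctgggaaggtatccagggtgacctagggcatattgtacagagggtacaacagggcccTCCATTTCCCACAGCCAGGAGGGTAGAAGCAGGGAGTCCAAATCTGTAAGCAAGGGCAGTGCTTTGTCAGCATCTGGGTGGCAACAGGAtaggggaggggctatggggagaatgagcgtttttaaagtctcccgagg
Klk1b21 (chr7:44102042-44102291): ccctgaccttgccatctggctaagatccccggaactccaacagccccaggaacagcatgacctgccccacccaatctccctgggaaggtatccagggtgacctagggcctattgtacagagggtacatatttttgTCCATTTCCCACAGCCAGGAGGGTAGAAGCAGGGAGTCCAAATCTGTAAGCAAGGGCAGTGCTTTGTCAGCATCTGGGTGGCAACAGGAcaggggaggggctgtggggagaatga
Klk1b24 (chr7:44187986-44188235): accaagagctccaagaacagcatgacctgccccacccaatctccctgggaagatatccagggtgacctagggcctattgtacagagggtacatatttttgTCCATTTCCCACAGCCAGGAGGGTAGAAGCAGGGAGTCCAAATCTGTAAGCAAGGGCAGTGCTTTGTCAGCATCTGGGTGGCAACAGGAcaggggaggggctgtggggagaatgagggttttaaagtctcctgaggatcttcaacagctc
The run was present on the gene's own strand in 3 of 32851 mouse promoters in the RefSeq table, these 3. Any promoter of Klk1b22 or Klk1b16 in that table thus lacks it, although both genes were also lower. The run was defined from these 3 genes, so its absence elsewhere is no test. It is a description of their sequence and identifies no regulatory site.

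In the other groups, Klk1b21 averaged 6.80 ± 2.24 FPKM with AOS alone and 8.27 ± 3.54 FPKM with the diet alone (SD, n = 3 each), both between control and HFD-AOS. With the diet and FMT it averaged 5.4 ± 0.99 FPKM (HFD-AOSFMT) and 2.53 ± 0.96 FPKM (HFD-conFMT), the latter below HFD-AOS. Klk1b24 averaged 7.5 FPKM with AOS alone and 8.91 FPKM with the diet alone. Klk1b27 averaged 5.05 and 7.003 FPKM in those groups. In HFD-AOSFMT and HFD-conFMT, Klk1b24 averaged 6.41 and 4.15 FPKM and Klk1b27 3.26 and 2.65 FPKM. Each is a comparison with the same 3 controls. In bulk tissue, fewer cells of a type and less RNA per cell cannot be told apart, here and in the results that follow.

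Leydig cell genes other than the kallikreins gave a mixed picture. For comparison, 7706 of all 13105 genes tested were lower, 1.5% were called lower and the median was -0.03. Of 20 genes of Leydig cells and steroidogenesis, 18 were tested, 14 of them lower and 4 higher in HFD-AOS, with 1 called lower, 0 called higher and a median of -0.14. The called gene was Prlr, the prolactin receptor, at 4.78, 4.91 and 5.32 FPKM in the controls and 3.63, 3.41 and 3.70 FPKM in HFD-AOS (log2 difference -0.39, adjusted p = 0.0386). Control 3 was its highest library, and without it the difference was -0.35 (adjusted p = 0.12). Star, which carries cholesterol into mitochondria, measured 37.6, 43.1 and 52.8 FPKM against 35.03, 24.8 and 31.1 FPKM (-0.54, adjusted p = 0.079). Its groups did not overlap, although the difference did not pass the test.

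The steroidogenic isoenzymes Hsd3b1 and Hsd3b6 had differences of opposite sign. Hsd3b1 measured 81.6, 64.5 and 67.5 FPKM in the controls and 110, 102 and 109 FPKM in HFD-AOS (0.59, adjusted p = 0.088). Hsd3b6, the form of adult Leydig cells in mouse, measured 25.1, 32.2 and 40.1 FPKM against 14.9, 16.2 and 25.9 FPKM (-0.76, adjusted p = 0.091). Neither passed the test. The P450 enzymes Cyp11a1 (-0.36, adjusted p = 0.20) and Cyp17a1 (-0.38, adjusted p = 0.12) were lower in all 3 HFD-AOS libraries than in any control, also without passing. The Leydig cell hormone Insl3 measured 3345, 2929 and 3160 FPKM against 4367, 2320 and 2282 FPKM, so HFD-AOS 1 alone exceeded the controls (-0.14, adjusted p = 0.76).

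Spink4 had the largest rise among the named genes, and both Spink4 and Mt2 stayed called in 14 of 17 alternatives. Spink4, a Kazal-type inhibitor of serine proteases, measured 4.19, 3.37 and 4.43 FPKM in the controls and 18.2, 12.1 and 15.6 FPKM in HFD-AOS. The lowest HFD-AOS library was above the highest control, and the means of 3.997 ± 0.56 and 15.3 ± 3.07 FPKM stood 3.83-fold apart (log2 difference 1.70, SE 0.27, adjusted p = 0.00974). With AOS alone Spink4 averaged 7.27 ± 2.65 FPKM and with the diet alone 6.32 ± 2.45 FPKM. It lost its call without control 2 and kept it without control 3.

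Mt2, a metallothionein that binds zinc and copper, measured 435, 363 and 376 FPKM in the controls and 646, 526 and 536 FPKM in HFD-AOS (0.54, SE 0.08, adjusted p = 0.00489). Its groups did not overlap, and the means for AOS alone (458 FPKM) and the diet alone (453 FPKM) lay between them. Mt1, its neighbour, measured 1368, 1212 and 1172 FPKM against 1865, 1446 and 1176 FPKM (0.24, adjusted p = 0.29). The groups of Mt1 overlapped. Mt1 was added after its values were seen.

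Ghrl, which encodes the growth hormone secretagogue ghrelin, measured 67.9, 58.8 and 61.7 FPKM in the controls and 117, 90.2 and 104 FPKM in HFD-AOS (0.71, adjusted p = 0.0398). It averaged 95.4 FPKM with AOS alone and 70.5 FPKM with the diet alone. Ccdc57, a coiled-coil protein of the centrosome, measured 31.8, 35.1 and 34.95 FPKM in the controls and 71.2, 47.3 and 63.5 FPKM in HFD-AOS (0.80, adjusted p = 0.0279). The remaining 8 of the 12 largest rises were Prm3, Olfr128, Bnipl, Ndufs6, Gapt, Cd7, Ly6g6c and Svs5, with differences of 0.50 to 0.73. Cd7, an immunoglobulin family protein known from T cells, reached 1.90 to 2.26 FPKM in HFD-AOS, from 0.79 to 1.01 FPKM in the controls.

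**Figure D2:**
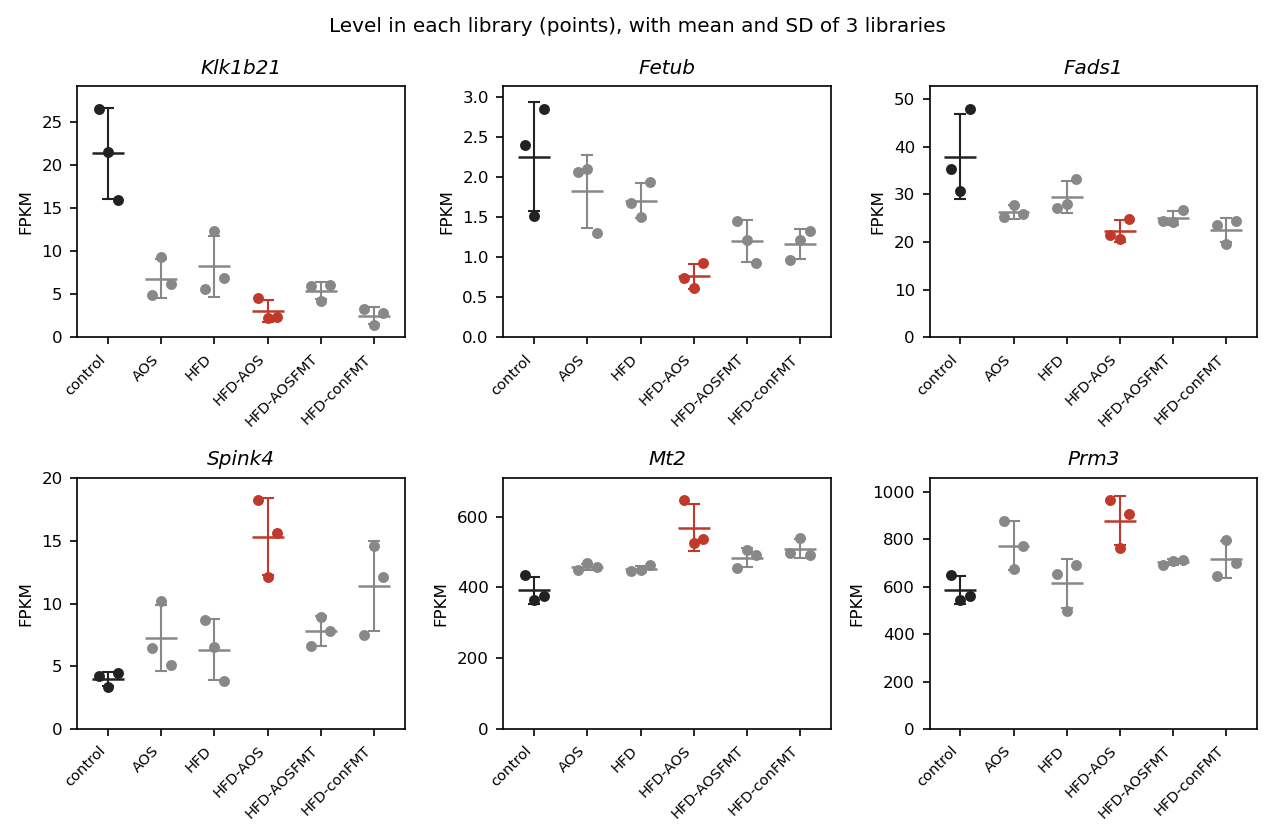
Levels in FPKM of 6 called genes in each of the 18 libraries (points), by group, with the mean and SD of the 3 libraries; control is black, HFD-AOS red and the other groups grey. HFD-AOS lies apart from control in every panel, at 12.1 to 18.2 FPKM for Spink4 against 3.37 to 4.43 FPKM.

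Beside the kallikreins, the largest falls included genes of plasma proteins and of arginine, glycine and lipid metabolism. Fetub, a fetuin that inhibits the egg protease ovastacin, measured 2.40, 1.51 and 2.85 FPKM in the controls and 0.74, 0.62 and 0.93 FPKM in HFD-AOS (-0.86, SE 0.15, adjusted p = 0.0162). Ass1, which makes argininosuccinate for arginine synthesis, measured 98.6, 76.2 and 125 FPKM against 48.1, 57.9 and 59.8 FPKM (-0.82, adjusted p = 0.0279). Control 3 was the highest library for both, and both lost their call without it, at -0.73 (adjusted p = 0.057) for Fetub and -0.65 (adjusted p = 0.091) for Ass1, and kept it without control 2.

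Itih2, a heavy chain of the inter-alpha-trypsin inhibitors, measured 11.02, 7.92 and 10.3 FPKM in the controls and 4.25, 5.54 and 5.54 FPKM in HFD-AOS (-0.81, adjusted p = 0.0358). Aqp2, a water channel, measured 4.71, 5.0 and 7.14 FPKM against 2.24, 2.30 and 2.73 FPKM (-0.94, adjusted p = 0.0364). Gnmt, a glycine methyltransferase, measured 3.94, 3.43 and 2.41 FPKM against 1.45, 1.68 and 1.64 FPKM (-0.70, adjusted p = 0.0398). The groups did not overlap for any of these 3 genes. Without control 3 the differences were -0.77 for Itih2 (adjusted p = 0.11), -0.78 for Aqp2 (adjusted p = 0.13) and -0.85 for Gnmt (adjusted p = 0.054). With the diet alone Gnmt averaged 1.88 FPKM and Aqp2 2.79 FPKM, close to their HFD-AOS means of 1.59 and 2.42 FPKM.

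Enzymes of cholesterol synthesis were lower as a group. All 22 listed enzymes were tested, 20 lower and 2 higher in HFD-AOS, with 7 called lower, 0 called higher and a median of -0.21, against 196 called lower (1.5%) and a median of -0.03 over all genes. Their summed level ran from 456 to 486 FPKM in the controls and from 417 to 431 FPKM in HFD-AOS, without overlap. Among the called enzymes, Hmgcs1 makes HMG-CoA, Mvd completes isoprene formation, Lss closes the sterol ring, and Tm7sf2, Msmo1 and Sc5d act between lanosterol and cholesterol.

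Msmo1, which removes methyl groups from the sterol, had the largest difference of the 7. It measured 22.5, 20.6 and 24.7 FPKM in the controls and 12.1, 14.1 and 15.8 FPKM in HFD-AOS (-0.66, SE 0.13, adjusted p = 0.0234). Sc5d measured 8.64, 8.32 and 10.3 FPKM against 6.19, 4.20 and 6.19 FPKM (-0.64, adjusted p = 0.0341). For both, every HFD-AOS library lay below every control.

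Hmgcs1 measured 32.2, 32.1 and 36.1 FPKM in the controls and 24.6, 27.6 and 27.3 FPKM in HFD-AOS (-0.32, adjusted p = 0.0321). Mvd measured 3.09, 2.49 and 3.53 FPKM against 1.66, 2.07 and 2.06 FPKM (-0.46, adjusted p = 0.0212). Lss measured 3.91, 3.71 and 4.56 FPKM against 2.71, 2.77 and 2.95 FPKM (-0.41, adjusted p = 0.0234). The groups were separate for all 3. Tm7sf2 had a difference of -0.42 (adjusted p = 0.0321).

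Sqle, a controlled step of the sterol branch, lay below every control in all 3 HFD-AOS libraries without passing the test (-0.13, adjusted p = 0.12). Of 16 tested genes of cholesterol regulation and transport, 2 (12.5%) were called, both lower, with a median of -0.02. Of all genes, 1.5% were called lower. Insig1, which holds the sterol sensor in the endoplasmic reticulum, measured 7.65, 6.22 and 8.31 FPKM against 3.79, 5.43 and 5.34 FPKM (-0.52, adjusted p = 0.0332). Without control 3, its highest library, the difference was -0.45 (adjusted p = 0.11). Soat1, which esterifies cholesterol, measured 8.91, 9.98 and 9.64 FPKM against 7.64, 7.63 and 7.67 FPKM (-0.28, adjusted p = 0.0351). The factor Srebf2, which switches the pathway on, had a difference of 0.01 (adjusted p = 0.98).

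Promoters of these genes were searched for TCACNCCAC, a core of the sterol regulatory element, on both strands. Of the 7 called synthesis enzymes, 6 matched the RefSeq promoter table, and 1 of these, Hmgcs1, held the motif in the 300 bases around its start site. Over all 32851 promoters of that length 1.24% held it. The Hmgcs1 promoter (GRCm38.p6, plus strand, 250 bases before the start) is shown with its match in capitals, at -137 from the start site.
Hmgcs1 (chr13:119690101-119690350): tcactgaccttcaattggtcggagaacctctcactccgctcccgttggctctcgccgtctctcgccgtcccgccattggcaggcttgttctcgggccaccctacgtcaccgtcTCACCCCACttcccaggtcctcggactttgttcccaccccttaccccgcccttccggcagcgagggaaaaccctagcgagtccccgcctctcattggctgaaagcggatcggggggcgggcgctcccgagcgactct
A match in a window is a description and not a bound site.

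Fatty acid synthesis and desaturation showed a similar lowering. Of 27 listed genes, 23 were tested, 20 lower and 3 higher, with 7 called lower, 0 called higher and a median of -0.20. Those 7 are 30.4% of the genes tested, against 1.5% of all genes called lower. Their summed level was 819 to 890 FPKM in the controls and 728 to 755 FPKM in HFD-AOS. The called genes comprise suppliers of carbon and NADPH (Acly, Me1), the fatty acid synthase Fasn, the desaturases Fads1, Fads2 and Scd2, and the elongase Elovl2.

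Fads1, the delta-5 desaturase of polyunsaturated fatty acids, measured 35.2, 30.6 and 47.9 FPKM in the controls and 21.5, 20.7 and 24.9 FPKM in HFD-AOS (-0.72, SE 0.13, adjusted p = 0.0173). Fads2, the delta-6 desaturase, measured 102, 83.4 and 109 FPKM against 69.4, 63.1 and 74.9 FPKM (-0.49, adjusted p = 0.0389). Both were lower in every HFD-AOS library. Me1, malic enzyme, measured 175, 170 and 176 FPKM in the controls and 141, 149 and 146 FPKM in HFD-AOS (-0.26, SE 0.04, adjusted p = 0.0162), a small difference with little spread.

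Fasn measured 9.50, 9.60 and 9.57 FPKM in the controls and 8.46, 7.97 and 8.20 FPKM in HFD-AOS (-0.20, adjusted p = 0.0444). Elovl2, which lengthens polyunsaturated chains, measured 84.4, 86.1 and 81.7 FPKM against 74.0, 74.0 and 71.5 FPKM (-0.20, adjusted p = 0.0398). The groups were separate in both. Acly (-0.36, adjusted p = 0.0377) and Scd2 (-0.35, adjusted p = 0.0467) complete the 7. The factor Srebf1 had a difference of 0.00 (adjusted p = 0.99).

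Both lipid lists kept a negative median in all 17 alternatives, from -0.28 to -0.15 for cholesterol synthesis and from -0.27 to -0.14 for fatty acid synthesis. Their calls were less stable. Without control 3, in which several of these enzymes were highest, 0 of the 22 and 0 of the 23 members were called, and without control 2, 1 and 1. With AOS alone the medians against the same controls were -0.19 and -0.15, and with the diet alone -0.02 and -0.07. For example, Msmo1 averaged 14.1 ± 1.26 FPKM with AOS alone, 20.03 ± 2.67 FPKM with the diet alone, 14 ± 1.82 FPKM in HFD-AOS and 22.6 ± 2.08 FPKM in control (SD, n = 3 each).

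**Figure D3:**
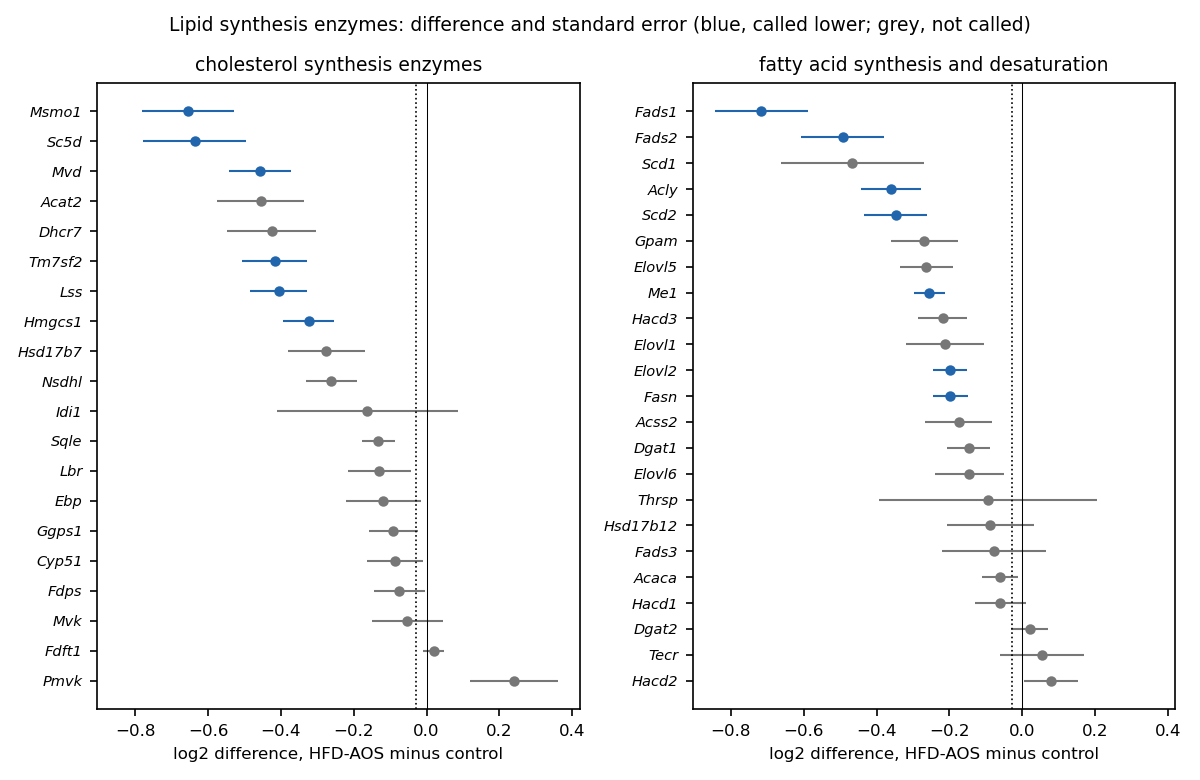
Log2 difference, HFD-AOS minus control, with its standard error for 20 of the 22 enzymes of cholesterol synthesis (left) and 23 genes of fatty acid synthesis and desaturation (right); blue points were called lower, grey points were not called, and the dotted line is the median of all genes tested. Msmo1 at -0.66 and Fads1 at -0.72 lie lowest in their panels, and 6 genes on the left and 7 on the right are blue.

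Fatty acid oxidation gave 0 calls by limma. Of 24 genes tested, 21 were lower, with a median of -0.07, against 7706 of 13105 and -0.03 over all genes. Hadhb, a subunit of the mitochondrial trifunctional protein, measured 51.9, 55.6 and 49.1 FPKM in the controls and 40.8, 47.5 and 46.3 FPKM in HFD-AOS (-0.22, adjusted p = 0.085). Its groups did not overlap.

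Along the germ line, calls were few, and they fell among spermatid genes. Of all genes tested, 41.2% were higher and 0.984% were called higher, with a median of -0.03. Of 32 genes of elongating spermatids, 27 were higher, with 2 called higher, 0 lower and a median of 0.10. Of 33 genes of round spermatids, 25 were higher, with 5 called higher, 0 lower and a median of 0.07. Of 37 spermatocyte genes, 30 were lower, with 0 called by limma and a median of -0.08, so their direction is a count of values and not of changes. Of 18 spermatogonial genes, 11 were lower, with 0 called and a median of -0.03. These medians are small, and 3 of them change sign with the scaling. That of round spermatids is -0.01 with libraries scaled to the same sum, and with quantile normalization that of elongating spermatids is -0.01 and that of spermatogonia 0.01.

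The called genes of elongating spermatids were Prm3 and Prm2. Prm3, of the protamine cluster, measured 652, 544 and 562 FPKM in the controls and 965, 765 and 909 FPKM in HFD-AOS (0.58, adjusted p = 0.0321). Prm2, a protamine that replaces histones, measured 12848, 10130.3 and 11349 FPKM against 17364, 13523 and 15340 FPKM (0.43, adjusted p = 0.0425). The groups were separate in both, with HFD-AOS 1 the highest library. Prm1 measured 13687, 13051 and 11650 FPKM against 17895, 14753 and 15540 FPKM (0.33, adjusted p = 0.12), and Tnp1 overlapped between the groups (0.20, adjusted p = 0.32).

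Among round spermatid genes, Sun5, which couples the sperm head to the tail, measured 128, 127 and 123 FPKM in the controls and 170, 168 and 141 FPKM in HFD-AOS (0.33, adjusted p = 0.0279). Spaca7, an acrosomal protein, measured 150, 154 and 142 FPKM against 211, 186 and 164 FPKM (0.32, adjusted p = 0.0333). Spink2, a protease inhibitor of the acrosome, measured 959, 886 and 834 FPKM against 1382, 1065 and 1048 FPKM (0.37, adjusted p = 0.0398). In all 3 genes the groups did not overlap. Prss55 (0.16) and Spaca4 (0.35) had adjusted p-values of 0.0341 and 0.0398. Without control 2 or without control 3, 0 members of either spermatid list were called.

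Outside the lists, Izumo2 and Tmem190, both known from sperm, were named after their values were seen. Izumo2 measured 138, 133 and 144 FPKM in the controls and 189, 176 and 171 FPKM in HFD-AOS (0.37, adjusted p = 0.00489). Tmem190 measured 126, 123 and 115 FPKM against 168, 155 and 148 FPKM (0.37, adjusted p = 0.00489). Both kept their call without control 2 and without control 3, and both lost it with adjustment for transcript length and GC content, at 0.25 (adjusted p = 0.061) for Izumo2 and 0.22 (adjusted p = 0.089) for Tmem190.

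Of the spermatocyte genes, Meioc, which sustains meiotic prophase, was nearest to the threshold at 38.0, 41.7 and 41.3 FPKM in the controls and 35.2, 37.2 and 32.2 FPKM in HFD-AOS (-0.21, adjusted p = 0.055). Ythdc2, its partner, had a difference of -0.22 (adjusted p = 0.061). Sycp3, of the synaptonemal complex, had one of -0.12 (adjusted p = 0.35). The germ cell RNA-binding gene Dazl measured 48.7, 54.7 and 47.2 FPKM against 38.1, 45.3 and 41.8 FPKM (-0.26, adjusted p = 0.058), and Stra8, which opens meiosis, overlapped between groups (-0.02, adjusted p = 0.96). In the cell cycle list, 2 of 20 tested genes (10%) were called, both lower, against 1.5% of all genes called lower. They were Top2a, a topoisomerase, at -0.26 (adjusted p = 0.0257), and Bub1, a spindle checkpoint kinase, at -0.27 (adjusted p = 0.0351).

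A few transcripts of the translation and respiratory machinery were called. Of 83 cytosolic ribosomal protein genes tested, 63 were higher, with 7 called higher (8.43%, against 0.984% of all genes), 0 lower and a median of 0.12. Rpl23a measured 422, 399 and 415 FPKM in the controls and 517, 473 and 475 FPKM in HFD-AOS (0.25, adjusted p = 0.0212). Also called were Rpl27, Rpl32, Rpl41, Rps10 and Rps18, at 0.21 to 0.33. These genes have many processed pseudogenes, and how shared reads were counted is not given.

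Of 82 nuclear genes of oxidative phosphorylation, 54 were higher, with 3 called higher, 1 lower and a median of 0.09. The 4 calls are 4.88% of the list, against 2.48% of all genes. With adjustment for length and GC content the median was 0.03. All 4 called genes encode subunits of complex I. Ndufs6 measured 76.1, 81.1 and 68.0 FPKM in the controls and 117, 108 and 139 FPKM in HFD-AOS (0.68, adjusted p = 0.0358). Ndufv3 (0.39) and Ndufb7 (0.31) also rose, while Ndufs1, the largest subunit, fell from 31.8, 31.6 and 31.8 FPKM to 27.0, 27.6 and 27.9 FPKM (-0.20, adjusted p = 0.0364). Without control 2 or without control 3, 0 members of the ribosomal and oxidative phosphorylation lists were called. Both medians stayed positive in the 17 alternatives, at 0.04 to 0.15 and 0.01 to 0.12.

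**Figure D4:**
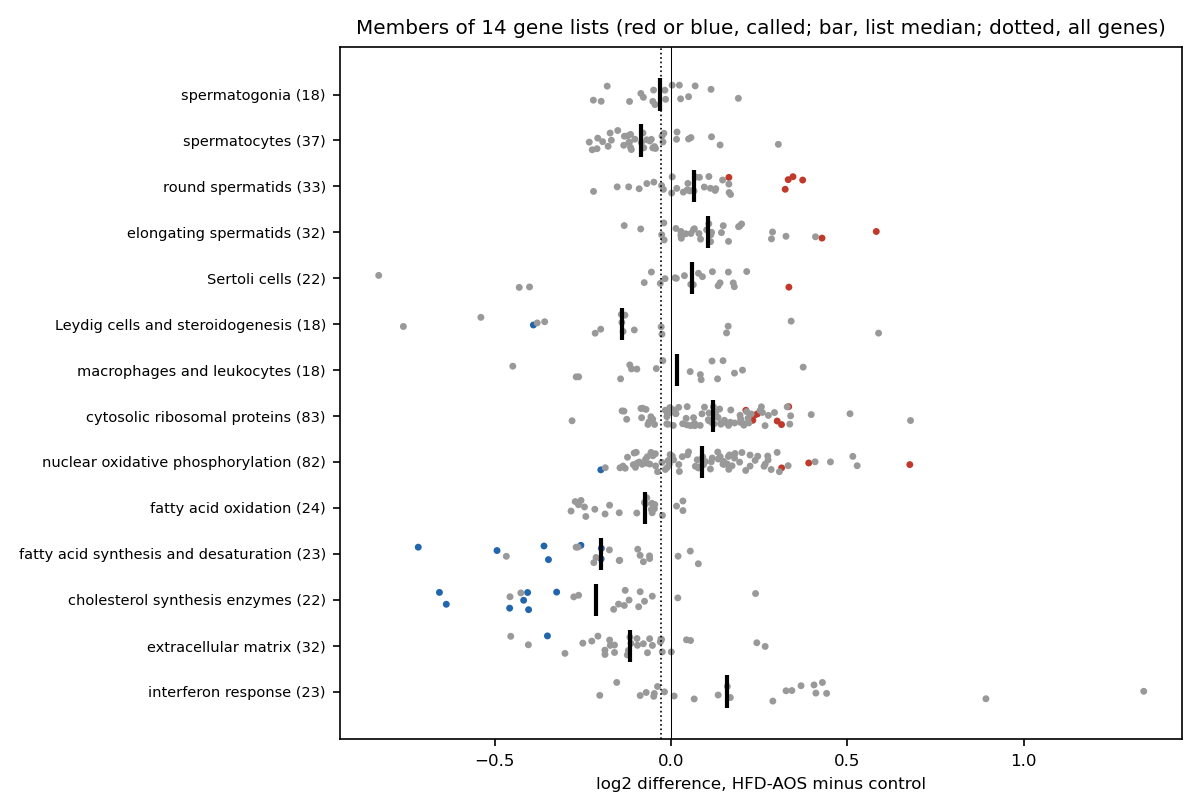
Log2 difference, HFD-AOS minus control, of each tested member of 14 gene lists (points; red called higher, blue called lower, grey not called), with the list's median as a bar, the median of all genes as a dotted line and the number of members in brackets. Elongating spermatid (0.10) and ribosomal protein (0.12) medians lie to the right, and cholesterol (-0.21) and fatty acid synthesis (-0.20) medians to the left.

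Called genes differed in transcript length in a way that runs along these lists. The median length was 1074 bases for genes called higher, 4962 bases for genes called lower and 3109 bases for all tested. Among the 3219 shortest transcripts, 99 genes were called higher and 12 lower, and among the 3213 longest, 4 and 108. The median difference over all genes fell from 0.05 for the shortest 3219 transcripts through -0.02 and -0.05 to -0.08 for the longest 3213. Across 12851 genes, which are not independent replicates, Spearman's rho of the difference with length was -0.34 and with GC content 0.25. For each library's deviation from the mean of all 18, rho with length was 0.21, 0.38 and 0.31 in controls 1 to 3. In HFD-AOS 1 to 3 it was 0.02, -0.15 and -0.13. The other 12 libraries ran from -0.28 (HFD-conFMT 2) to 0.25 (HFD 2). The ribosomal, elongating spermatid and oxidative phosphorylation lists have median lengths of 1059, 1184.5 and 1025.5 bases, against 3273.5 for cholesterol and 3460 for fatty acid synthesis.

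With each library adjusted for length and GC content, 7 genes were called higher and 8 lower. They were the kallikreins Klk1b21, Klk1b24 and Klk1b27 with Fetub, Mvd, Timp2, P4hb and Mmd2 among the lower, and Spink4, Saxo2, Pkib, Apopt1, Dnajc15, Pex3 and 2300009A05Rik among the higher. In that analysis the medians of cholesterol and fatty acid synthesis were -0.17 and -0.14, those of the ribosomal and elongating spermatid lists 0.04 and 0.04. Whether library preparation or RNA quality contributes to the trend with length was not tested.

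**Figure D5:**
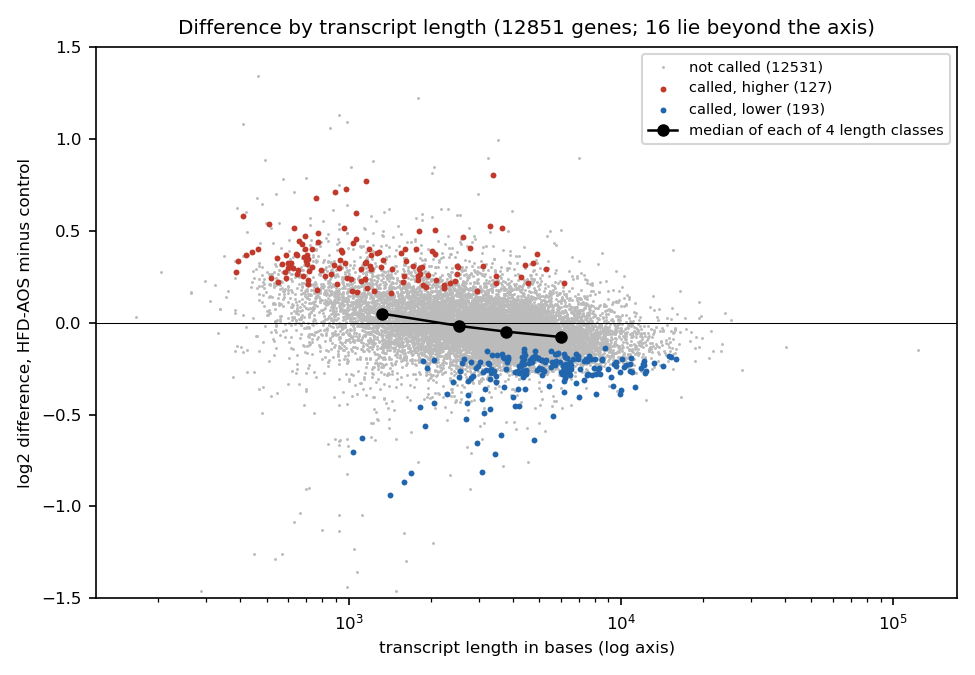
Log2 difference, HFD-AOS minus control, against transcript length in bases (log axis) for 12851 genes; red and blue points were called higher and lower, and black points are the medians of 4 length classes of about equal size, which fall from 0.05 to -0.08. Genes called higher gather among short transcripts (median 1074 bases) and genes called lower among long ones (median 4962 bases).

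Somatic and other markers were checked beside these results. Over all genes tested, 41.2% were higher, 2.48% were called and the median was -0.03. Of 22 Sertoli cell genes tested, 15 were higher and 1 was called, with a median of 0.06. Defb19, a beta-defensin of Sertoli cells, rose from 258, 244 and 223 FPKM to 327, 329 and 263 FPKM (0.33, adjusted p = 0.0433). Aldh1a1, a retinal dehydrogenase, measured 246, 260 and 427 FPKM in the controls and 142, 162 and 211 FPKM in HFD-AOS (-0.83, adjusted p = 0.054). Its groups did not overlap, and control 3 was the highest library, without which the difference was -0.58 (adjusted p = 0.18).

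Of 32 extracellular matrix genes tested, 27 were lower, with 1 called lower (3.1%) and a median of -0.11. Of all 13105 genes tested, 7706 were lower and 1.5% were called lower. Timp2, an inhibitor of matrix metalloproteases, measured 59.5, 62.7 and 62.5 FPKM in the controls and 49.99, 47.9 and 46.4 FPKM in HFD-AOS (-0.35, adjusted p = 0.0162). Without control 3 it was -0.34 (adjusted p = 0.056). Itgb1, an integrin, was the 1 call of 16 genes of the blood-testis barrier (-0.21, adjusted p = 0.0364), and the tight junction gene Ocln had a difference of -0.20 (adjusted p = 0.18). Of 12 endothelial genes tested, 10 were lower and 0 called by limma (median -0.10). Macrophage and leukocyte genes were split evenly, 9 of 18 higher, with 0 called and a median of 0.02. Their summed levels were 432 to 451 FPKM in the controls and 456 to 463 FPKM in HFD-AOS. Most of that sum was Aif1, at 323, 329 and 343 FPKM against 337, 361 and 358 FPKM. Its groups overlapped (0.09, adjusted p = 0.33). Fcer1g (-0.45, adjusted p = 0.29), Lyz2 (-0.27, adjusted p = 0.30) and Mrc1 (-0.14, adjusted p = 0.43) were lower, also without a call. The summed level therefore does not describe the list's other members.

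Of 5 blood genes tested, 1 was called (20%, against 2.48% of all genes), the lower Hbb-b2, and 1 had a positive difference, Hbb-bs. The minor adult beta-globin Hbb-b2 measured 5.88, 4.09 and 5.02 FPKM in the controls and 1.19, 0.97 and 1.71 FPKM in HFD-AOS (-1.39, adjusted p = 0.0429), and without control 3 the difference was -1.38 (adjusted p = 0.11). Hba-a1 measured 101, 110 and 85.6 FPKM against 50.1, 43.9 and 64.1 FPKM (-0.91, adjusted p = 0.095) and Hbb-b1 measured 52.0, 34.7 and 41.9 FPKM against 19.0, 19.6 and 19.8 FPKM (-1.08, adjusted p = 0.14). Neither of these 2 passed the test, though their groups did not overlap. The beta-globin entry Hbb-bs measured 0.29, 19.0 and 3.28 FPKM in the controls and 4.95, 4.79 and 13.1 FPKM in HFD-AOS (0.71, adjusted p = 0.69). The labels do not say how reads were divided among globin entries, and the part of globin genotype in this outbred stock was not tested. The summed blood markers, mostly globins, were 147 to 180 FPKM in the controls and 81.0 to 109 FPKM in HFD-AOS, and the part of residual blood in other results was not tested.

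Several epididymal markers were high in control 3. The summed level of 25 genes of epididymis and accessory glands was 44.6, 61.1 and 273 FPKM in the controls from lowest to highest and 64.3 to 77.4 FPKM in HFD-AOS, and 5 of the 25 were at 0 in all 6 libraries. Cuzd1 measured 2.32, 2.04 and 40.4 FPKM in controls 1 to 3 and 1.38, 1.25 and 1.96 FPKM in HFD-AOS. Of the 5 tested, 1 was called (20%, against 2.48% of all genes). This was Svs5, at 1.65, 2.26 and 1.64 FPKM in the controls and 2.72, 2.98 and 3.50 FPKM in HFD-AOS (0.52, adjusted p = 0.0479). The part of epididymal RNA in other results was not tested.

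Calls made up 9.09% of the endoplasmic reticulum list, 5% of the heat shock list and 17.65% of the signal peptidase and oligosaccharyltransferase list. Over all genes tested, 2.48% were called. In the endoplasmic reticulum list, 2 of 22 were called, Edem1 (-0.28, adjusted p = 0.0359) and Canx (-0.24, adjusted p = 0.0484), which handle misfolded glycoproteins. Hsp90aa1 was the 1 call of 20 heat shock genes, at 732, 797 and 734 FPKM in the controls and 635, 663 and 635 FPKM in HFD-AOS (-0.23, adjusted p = 0.0489). In the signal peptidase and oligosaccharyltransferase list of 17, the catalytic subunit Stt3b fell (-0.28, adjusted p = 0.0173), while Spcs1 (0.17, adjusted p = 0.0279) and Dad1 (0.25, adjusted p = 0.0358) rose.

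Limma called 0 of the genes tested for interferon response (23), inflammation (10), antioxidant defence (29), apoptosis (19), glycolysis (23), retinoid metabolism (18), the circadian clock (14), immediate early response (16), adipocytes (6) and peritubular cells (12). In the interferon list 15 of 23 were higher, with a median of 0.16, against 41.2% higher and -0.03 over all genes. The other 8 were lower, among them Dhx58 (-0.15, adjusted p = 0.16). Without control 2 the list's median was 0.04. Ifi27l2a, an interferon-induced membrane protein, measured 2.95, 2.73 and 2.57 FPKM in the controls and 7.95, 11.8 and 6.48 FPKM in HFD-AOS (1.34, SE 0.40, adjusted p = 0.081). Irf7, a factor of the same response, measured 1.23, 0.51 and 0.85 FPKM against 3.28, 2.97 and 1.35 FPKM (0.89, adjusted p = 0.18). Both were separate between the groups without passing the test. Among antioxidant genes, Gpx1, a glutathione peroxidase, measured 24.3, 25.5 and 24.0 FPKM against 18.3, 16.6 and 21.1 FPKM (-0.39, adjusted p = 0.056).

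The last comparison asked whether HFD-AOS departs from control by more or less than the sum of the diet's and the AOS difference, through the contrast of the AOS effect with the diet and without it over 12 libraries. Limma called 0 genes, 0% of 13105, where 899 had an unadjusted p under 0.05 and the lowest adjusted p was 0.52, shared by 54 genes. Prss55, a round spermatid gene called in HFD-AOS against control, averaged 151 FPKM in control and 169 in HFD-AOS. It averaged 173 with AOS alone and 170 with the diet alone, so the 3 treated groups lay together. Its difference of effects was -0.21 and was not called (adjusted p = 0.52). For Klk1b21 the difference of effects was 0.37 (adjusted p = 0.88), and for Spink4 it was 0.51 (adjusted p = 0.83). A p that misses the threshold does not show that the effects add up.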

How the data were processed

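RNA was sequenced from frozen testis, with 3 libraries in each of 6 groups. The submitters' processing notes name Bowtie 0.12.2 and the mm10 genome. How reads were counted, on which annotation and with which strand setting, is not stated in the labels. The authors' table holds 20985 rows, 18 value columns and no unit. These deposited values were read as FPKM because their sums differ between libraries and their smallest steps shrink with transcript length. Symbols listed more than once (3 symbols, 6 rows) were dropped. Positions and lengths come from GENCODE annotation of GRCm38.

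The 13105 genes averaging 1 FPKM or more entered 1 model on log2(FPKM + 1), fitted with limma 3.58.1 in R 4.3.3 to all 18 libraries (6 group means, mean-variance trend, 12 residual degrees of freedom). P-values are two-sided, adjusted after Benjamini and Hochberg over these genes, and called under 0.05. The model was run on simulated data with independent noise in each gene. That noise held no trend with length and no outlying library, so the run does not bear on those features. Promoters were aligned with Biopython 1.88, and figures drawn with matplotlib 3.10.9.

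The comparison, the gene lists (33 lists, 904 entries, written from general knowledge) and the tests were chosen with earlier results of these data known. Named are the 12 largest called rises and falls whose groups do not overlap, reaching 2 FPKM in the higher group's mean and with no clone, predicted or Riken name, the 4 members of smallest p in each list described, and a panel of 16 testis genes. Other genes named were chosen after their values were seen. A few members of these lists enter the counts but are not reported here by name. Replicate numbers did not pair the libraries: the correlations of deviations were -0.03, -0.01 and 0.02. Alternatives varied the pseudocount, filter, scaling, libraries, weights, replicate block, and transcript length with GC content. Leaving out controls 2 and 3 together was added after the data were seen.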

Additional observations from a re-analysis of the deposited data

How the results depend on the processing

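The counts of 129 higher and 196 lower genes varied with the analysis. They were 126 and 196 with a pseudocount of 0.1, 194 and 306 with a mean of at least 5 FPKM, 54 and 99 with no filter on low values, and 76 and 163 with quantile normalization. Scaling to the same sum gave 112 and 1358, array weights 37 and 46, the compared groups alone 0 and 0 by limma (705 and 1091 at an unadjusted p under 0.05), and length and GC adjustment 7 and 8. Leaving out control 3 and HFD-conFMT 2 together gave 13 and 10, and leaving out controls 2 and 3 together 1 and 3, with control 1 then assumed to vary like the other groups. Leaving out 1 library at a time gave 7 to 218 higher genes and 9 to 213 lower, lowest without control 2 (7 and 9) and without control 3 (15 and 9), so both counts rest on these controls, and 51 and 63 without HFD-AOS 1. The fewer degrees of freedom of the 6-library fit are part of its construction; the cause of the other changes was not tested. With the replicate block the counts were 127 and 179, and the replicate numbers are shared labels with no pairing in the design. The difference of the AOS effects had 0 calls in each alternative in which it was computed, which excludes the one without controls 2 and 3 together. No called gene named in the text reversed its direction. Depth is unknown, and genes near 1 FPKM are measured least precisely.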
